A study of Rattus norvegicus with 3 samples.

Results

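The 9 genes described here, of the neurexin, neuroligin and LRRTM families of synaptic adhesion proteins, were followed across 3 ways of housing, in the basolateral amygdala (the BLA) of Sprague-Dawley rats that were adult and male. They were chosen by name: the neurexins Nrxn2 and Nrxn3, the neuroligins Nlgn1, Nlgn2 and Nlgn3, and the leucine-rich repeat transmembrane genes LRRTM1, Lrrtm2, Lrrtm3 and Lrrtm4. All 9 were found among the 19113 genes of the table, 8 spelled as they were sought and 1 listed in capitals as LRRTM1. Other genes of these families were not analysed here.

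Rats arrived at 8 weeks of age, and RNA from BLA tissue punches of 10 rats was pooled into 1 library per condition. ER rats (enrichment removal) had 4 weeks of enrichment, were then moved to single housing and were sacrificed 2 weeks later. EE rats (environmental enrichment) were 10 to a large wire mesh cage with toys during their active cycle and were housed singly by day. SH rats (standard housing) of this cohort were kept in pairs. The groups thus lived with different numbers of cage mates, and company and enrichment cannot be told apart in any comparison. Because each condition had a single pooled library, there was no replicate check and no test of the conditions, and the spread between rats is not known.

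Neurexins are presynaptic adhesion proteins, and neuroligins and LRRTMs are postsynaptic proteins that bind them across the synaptic cleft. Together they help to organise synapses: Nlgn1 and the LRRTMs are known mainly at excitatory synapses, Nlgn2 at inhibitory synapses and Nlgn3 at both. Each neurexin gene makes long and short proteins from separate promoters and many splice forms, which counts per gene do not separate. In bulk tissue, fewer cells of a type and less RNA per cell cannot be told apart.

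Values are scaled counts, the reads of a gene divided by a size factor of its library. The ER, EE and SH libraries held 29558555, 29263063 and 30334384 reads, of which the 9 genes took 0.147%, 0.147% and 0.153%. Between 918 and 18716 reads stood behind each value of a member. Ratios are given with exact 95% (Clopper-Pearson) intervals from these reads. The intervals cover counting error only, and they treat reads as independent. Reads that carry no molecular identifier are not independent molecules, so the intervals can be too narrow. They do not cover differences between pools of rats. Comparisons are named EEvSH, ERvSH and ERvEE, with the library named first on top of the ratio. Levels of different genes were not compared, because no exonic lengths were at hand.

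The 9 genes differed by less than 1.2-fold between the libraries. A gene was called where its ratio was at least 1.2-fold in either direction and its interval excluded 1. By this rule 0 of the 9 genes were called in EEvSH, in ERvSH or in ERvEE, while 5.43%, 4.12% and 4.13% of the 16775 protein-coding genes whose scaled count averaged above 1 were. Among the 8387 genes that averaged 500 or more, a level that all 9 members reached, 1.78%, 1.1% and 0.715% were called. A list of 9 would hold few called genes at those shares. In EEvSH the log2 ratios of genes at that level had quartiles of -0.057 and 0.053. Of the members only Nlgn1 and Lrrtm4 lay between them. In ERvSH (-0.051 and 0.052) Nrxn3, Nlgn1, Nlgn3 and Lrrtm2 did so. In ERvEE (-0.041 and 0.046) Nrxn2, Nlgn1, Nlgn2, LRRTM1 and Lrrtm3 did. In every comparison the whole interval of each of the 9 genes lay within 1.2-fold of 1. Their ratios ran between 0.917 and 1.12 in EEvSH, between 0.942 and 1.08 in ERvSH, and between 0.911 and 1.07 in ERvEE.

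Within that range, some intervals excluded 1. In EEvSH this held for 6 of the 9 genes, with Nrxn3 and Lrrtm2 higher in EE, and Nrxn2, Nlgn2, Nlgn3 and LRRTM1 lower. Such intervals are common: 25.8% of genes that averaged 500 or more had one in EEvSH (12.8% higher and 13.1% lower), and 18.2% of all genes tested. Whether an interval excludes 1 depends on depth. The members averaged between 966.6 and 17949.5 scaled counts, and the shares of other genes here are not matched to them for depth. In ERvSH the interval excluded 1 for 2 members, Nrxn2 and Nlgn2, both lower in ER, beside 22.3% of genes at that level (11.6% lower) and 15.5% of all. In ERvEE it did so for 1 member, Nrxn3, lower in ER, beside 17.1% of genes at that level (8.41% lower) and 13% of all. The ERvSH and ERvEE shares of members, 22.2% and 11.1%, were near or below those of other genes at that level. In EEvSH the share was 66.7% of a list of 9, and with 1 library per condition it was not tested. The 3 comparisons share libraries and are not independent of each other.

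**Figure D1:**
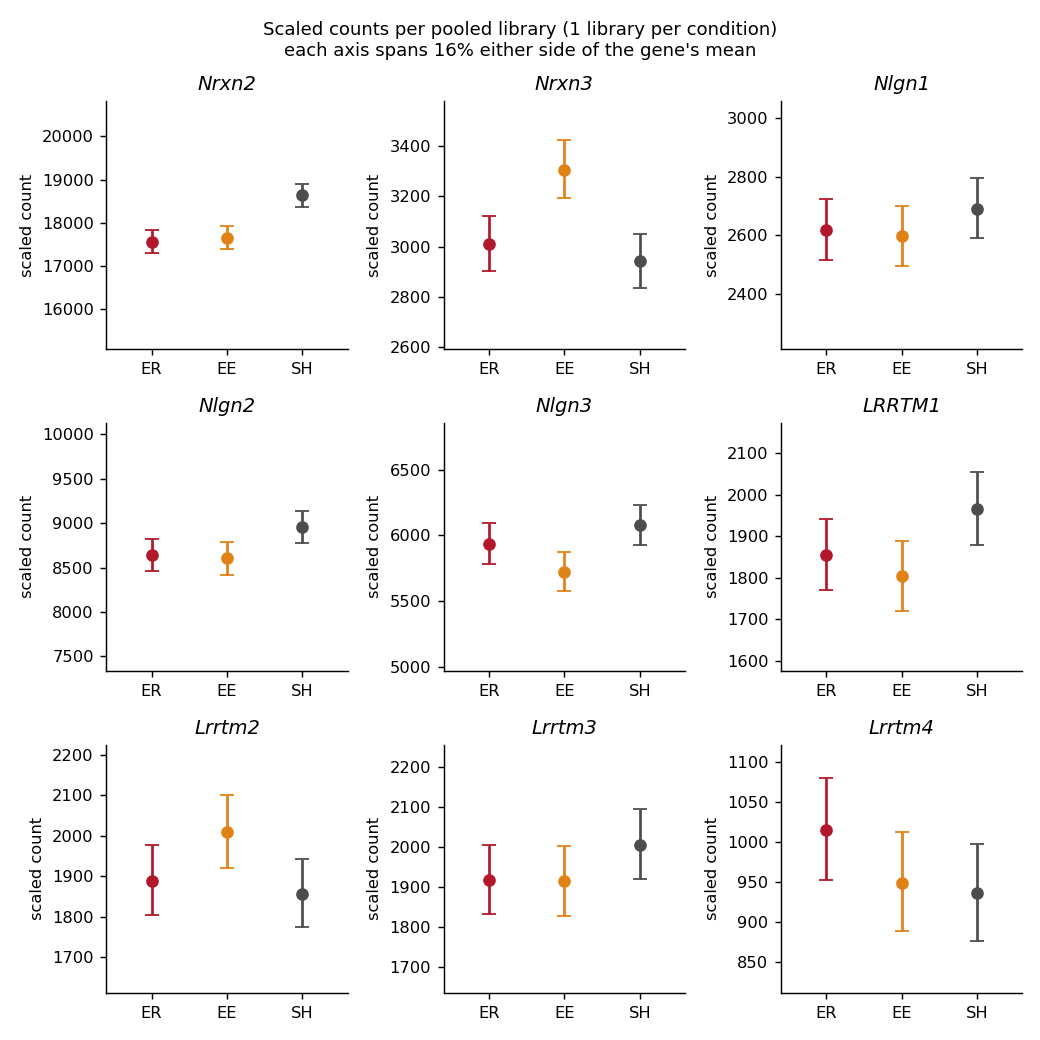
Scaled counts of the 9 genes (vertical axis of each panel, which does not start at 0) in the ER, EE and SH libraries. Points are the single pooled library of each condition and bars are exact 95% counting intervals; Nrxn3 was highest in EE, at 3306.4, while Nrxn2 was highest in SH, at 18638.2.

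The neurexin genes went opposite ways in EEvSH. Nrxn2 had 17559.6 scaled counts in ER and 17650.7 in EE, against 18638.2 in SH. Both enrichment-exposed libraries were thus below SH, with an ERvSH ratio of 0.942 (0.923 to 0.962) and an EEvSH ratio of 0.947 (0.928 to 0.967). ER and EE were close for this gene, with an ERvEE ratio of 0.995 (0.974 to 1.016). Nrxn3 had 3010.7 scaled counts in ER and 3306.4 in EE, against 2940.7 in SH. Here EE stood above the other libraries. The EEvSH ratio of Nrxn3 was 1.124 (1.069 to 1.182), its ERvSH ratio was 1.024 (0.972 to 1.078) and its ERvEE ratio was 0.911 (0.866 to 0.958). It had the widest range of the 9 genes over the libraries, 0.17 on the log2 scale.

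Set against each other, the pair differed beyond counting error in every comparison. There were 5.83 reads of Nrxn2 for each read of Nrxn3 in ER, 5.34 in EE and 6.34 in SH. That ratio was changed by a factor of 0.842 in EEvSH (exact interval 0.798 to 0.889), by 0.92 in ERvSH (0.871 to 0.973) and by 1.09 in ERvEE (1.03 to 1.15). A ratio of genes within a library does not depend on how libraries are scaled. Nrxn3 took 14.6% of the reads of both neurexin genes in ER (14.2 to 15.1), 15.8% in EE (15.3 to 16.3) and 13.6% in SH (13.2 to 14.1). Reads of the pair summed to 20570.4 scaled counts in ER and 20957.1 in EE, against 21578.9 in SH, and the sum gave an ERvSH ratio of 0.953 (0.935 to 0.972) and an EEvSH ratio of 0.971 (0.953 to 0.99).

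The genes with the pattern most like that of Nrxn3 over the 3 libraries were Syt12, Pde4b and Msn, out of 7896 genes with an ordinary symbol that averaged 500 or more. Likeness was the distance between their pairs of log2 ratios in EEvSH and ERvSH, which was 0.0015 for Syt12, 0.0036 for Pde4b and 0.0069 for Msn. Syt12, a member of the synaptotagmin family, had 1471 scaled counts in ER and 1616 in EE, against 1438 in SH. Pde4b, a phosphodiesterase that breaks down cyclic AMP, had 1167.4 in ER and 1278.9 in EE, against 1140.2 in SH. Msn, which links membrane proteins to actin, had 536.5 in ER and 589.3 in EE, against 525.8 in SH. These distances are small beside the counting interval of Nrxn3 itself, 1.069 to 1.182 in EEvSH. Counting error thus does not resolve which genes are nearest. The likeness rests on 3 libraries and is a description.

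The 3 neuroligin genes were each highest in SH and kept nearly the same proportions to each other. Nlgn1 had 2618.9 scaled counts in ER and 2597.1 in EE, against 2690.8 in SH. Nlgn2 had 8640.3 in ER and 8605.1 in EE, against 8955.6 in SH. Nlgn3 had 5937.3 in ER and 5724.7 in EE, against 6077.6 in SH. Their differences were small. In EEvSH the ratio was 0.961 for Nlgn2 (0.933 to 0.990) and 0.942 for Nlgn3 (0.908 to 0.977), while the interval of Nlgn1 at 0.965 (0.914 to 1.019) held 1. In ERvSH the ratio was 0.965 for Nlgn2 (0.936 to 0.994), 0.977 for Nlgn3 (0.942 to 1.013) and 0.973 for Nlgn1 (0.922 to 1.028). In ERvEE the ratio of Nlgn3 was 1.037 (0.999 to 1.076), that of Nlgn1 1.008 (0.954 to 1.066) and that of Nlgn2 1.004 (0.974 to 1.035).

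Nlgn2 took 50.2% of the neuroligin reads in ER, 50.8% in EE and 50.5% in SH. Nlgn1 took 15.2%, 15.3% and 15.2% in the same libraries, and Nlgn3 took 34.5%, 33.8% and 34.3%. For no pair of the 3 neuroligin genes did the interval of the change in their ratio exclude 1 in any comparison. For Nlgn1 over Nlgn2, the genes known from excitatory and from inhibitory synapses, the ratio changed by a factor of 1 in EEvSH (0.944 to 1.07), 1.01 in ERvSH (0.948 to 1.07) and 1 in ERvEE (0.943 to 1.07). Summed over the 3 genes there were 17196.5 scaled counts in ER and 16926.9 in EE, against 17724 in SH. The EEvSH ratio of the sum was 0.955 (0.935 to 0.976) and the ERvSH ratio was 0.97 (0.95 to 0.991).

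**Figure D2:**
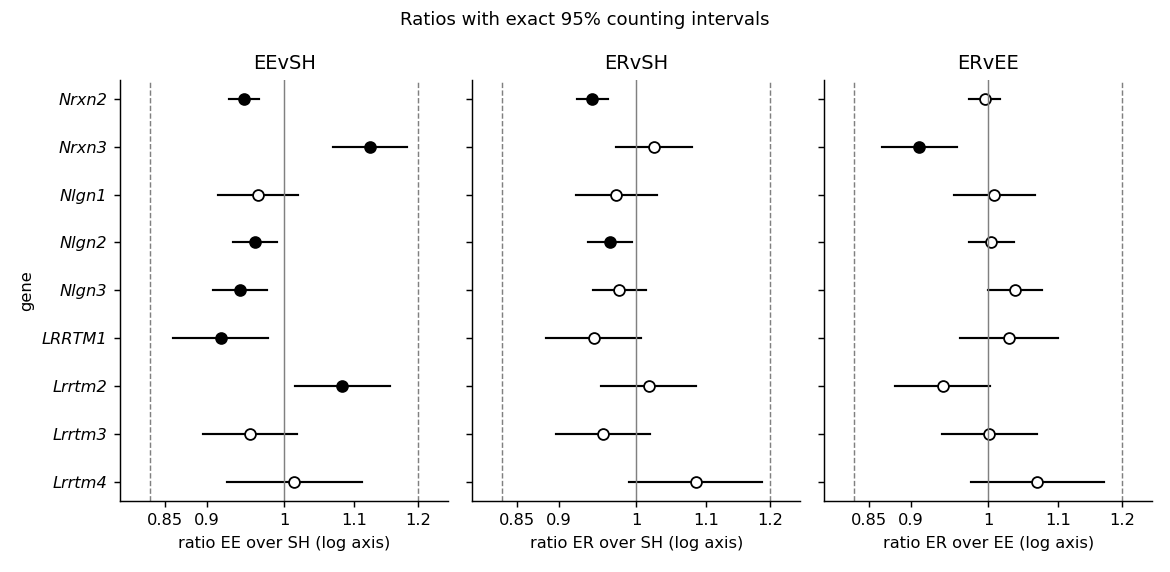
Ratios of scaled counts of the 9 genes (horizontal log axis) in EEvSH, ERvSH and ERvEE, with exact 95% counting intervals as bars. Filled points have an interval that excludes 1, dashed lines mark 1.2-fold in each direction, and every interval lies between them.

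The 4 LRRTM genes differed among themselves in which library had the highest value, though by little. LRRTM1, linked to excitatory synapses, had 1854.6 scaled counts in ER and 1803.1 in EE, against 1965.8 in SH. Lrrtm2, a neurexin partner that helps to hold AMPA receptors at synapses, had 1888.5 in ER and 2009.9 in EE, against 1857.2 in SH. These genes were at opposite ends in EE: the EEvSH ratio was 0.917 for LRRTM1 (0.860 to 0.979) and 1.082 for Lrrtm2 (1.015 to 1.154). Lrrtm3 had 1917.2 in ER and 1914.8 in EE, against 2005.6 in SH. Lrrtm4, which also binds glypicans, had 1014.5 in ER and 949.1 in EE, against 936.1 in SH. The intervals of Lrrtm3 and Lrrtm4 held 1 in every comparison, with EEvSH ratios of 0.955 (0.896 to 1.017) and 1.014 (0.925 to 1.112).

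In ERvSH the intervals of all 4 LRRTM genes held 1. The ratio was 0.943 for LRRTM1 (0.885 to 1.006), 1.017 for Lrrtm2 (0.953 to 1.085), 0.956 for Lrrtm3 (0.897 to 1.019) and 1.084 for Lrrtm4 (0.990 to 1.186). The same was true in ERvEE, where the ratio was 1.029 for LRRTM1 (0.963 to 1.099), 0.940 for Lrrtm2 (0.881 to 1.002), 1.001 for Lrrtm3 (0.938 to 1.068) and 1.069 for Lrrtm4 (0.976 to 1.171). Summed over the 4 genes the libraries were close, with 6674.9 scaled counts in ER and 6676.9 in EE, against 6764.8 in SH. The ratio of the sum was 0.987 in both EEvSH and ERvSH (0.954 to 1.02 in each).

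Proportions within the LRRTM family differed between the libraries beyond counting error for some pairs of genes. Lrrtm2 took 28.3% of the family's reads in ER, 30.1% in EE (29.0 to 31.2) and 27.5% in SH (26.4 to 28.5). LRRTM1 took 27.8% in ER, 27.0% in EE (25.9 to 28.1) and 29.1% in SH (28.0 to 30.2). Lrrtm3 took 28.7%, 28.7% and 29.6% in the same order of libraries, and Lrrtm4 took 15.2%, 14.2% and 13.8%. The ratio of LRRTM1 to Lrrtm2 was 0.897 in EE against 1.06 in SH, a change by a factor of 0.848 (0.773 to 0.929). The ratio of Lrrtm2 to Lrrtm3 changed by 1.13 in EEvSH (1.04 to 1.24). Lrrtm4 was higher relative to some of its relatives in ER: in ERvSH the ratio of LRRTM1 to Lrrtm4 changed by 0.871 (0.779 to 0.973) and that of Lrrtm3 to Lrrtm4 by 0.882 (0.79 to 0.985). In ERvEE the ratio of Lrrtm2 to Lrrtm4 changed by 0.879 (0.786 to 0.983). In all, 10 pairs of genes within families were compared, with no adjustment for their number, and the interval excluded 1 for 3 pairs in EEvSH, 3 in ERvSH and 2 in ERvEE. Nrxn3 or Lrrtm2 was in each of those pairs in EEvSH and ERvEE, and in 1 of the 3 in ERvSH. Both genes were the members with EEvSH intervals above 1, and the neurexins formed only 1 pair. Their recurrence thus adds nothing to their own ratios. No share over other gene pairs was computed, and among single genes that averaged 500 or more 25.8%, 22.3% and 17.1% had an interval that excluded 1, so nothing particular to the families is read from these counts.

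**Figure D3:**
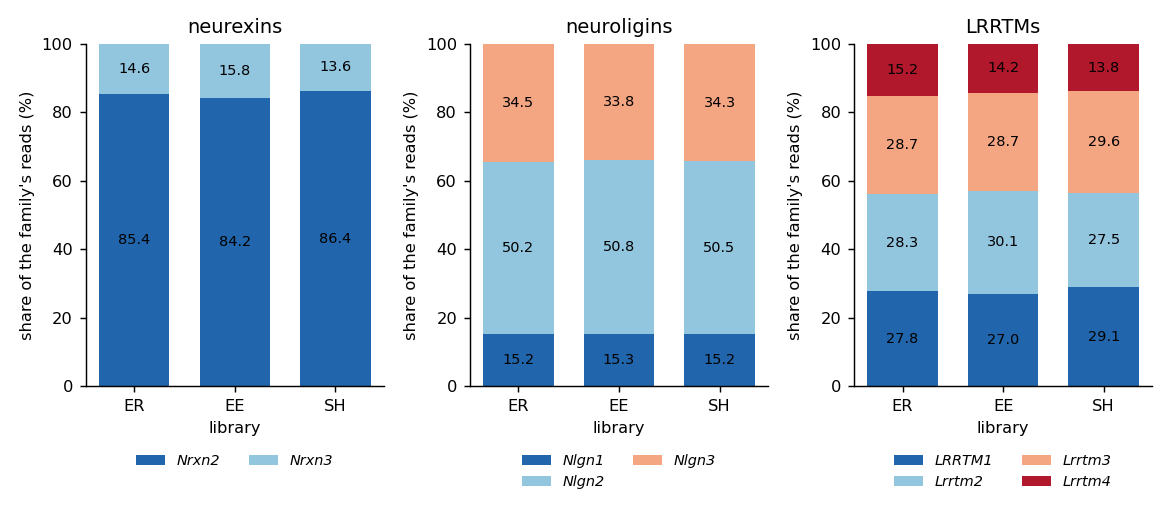
Share of each gene in the reads of its family (vertical axis, %) in the ER, EE and SH libraries, for the neurexin, neuroligin and LRRTM genes analysed. Nrxn3 took 15.8% in EE against 13.6% in SH and Lrrtm2 30.1% against 27.5%, while Nlgn2 stayed between 50.2% and 50.8%; shares depend on gene length, so only the same gene can be compared between bars.

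The promoters of 3 LRRTM genes are shown because each of these genes was highest in a different library: Lrrtm4 in ER, Lrrtm2 in EE and LRRTM1 in SH. For none of the 3 was the highest library apart from both of the others beyond counting error, since the intervals of Lrrtm4 in ERvSH and ERvEE, of Lrrtm2 in ERvEE and of LRRTM1 in ERvSH held 1. Sequences are from RefSeq (GRCr8), which gave a window of 250 bases before to 50 bases after the start for 7 of the 9 genes, without Nrxn2 and Nrxn3. Lrrtm4 is at chr4:114104380-114104679 on the + strand, Lrrtm2 at chr18:27096918-27097217 on the - strand and LRRTM1 at chr4:111259609-111259908 on the + strand. Capitals mark a match to a searched motif.
Lrrtm4: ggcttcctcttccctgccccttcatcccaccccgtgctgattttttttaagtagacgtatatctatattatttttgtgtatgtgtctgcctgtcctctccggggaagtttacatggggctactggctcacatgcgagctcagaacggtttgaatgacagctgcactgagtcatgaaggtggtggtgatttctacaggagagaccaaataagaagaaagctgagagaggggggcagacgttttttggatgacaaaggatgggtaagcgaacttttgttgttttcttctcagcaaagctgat
Lrrtm2: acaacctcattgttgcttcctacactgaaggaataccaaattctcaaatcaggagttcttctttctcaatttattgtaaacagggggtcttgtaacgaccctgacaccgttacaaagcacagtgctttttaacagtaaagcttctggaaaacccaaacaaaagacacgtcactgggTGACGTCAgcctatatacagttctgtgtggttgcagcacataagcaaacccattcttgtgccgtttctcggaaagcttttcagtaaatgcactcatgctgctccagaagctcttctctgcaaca
LRRTM1: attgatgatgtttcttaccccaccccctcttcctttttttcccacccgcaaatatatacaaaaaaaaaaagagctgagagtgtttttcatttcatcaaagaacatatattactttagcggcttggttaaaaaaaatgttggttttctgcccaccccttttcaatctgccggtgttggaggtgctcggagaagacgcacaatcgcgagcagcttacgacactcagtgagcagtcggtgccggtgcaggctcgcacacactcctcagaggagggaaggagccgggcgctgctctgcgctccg
The motifs searched on both strands were the TATA box TATAAA, the CCAAT box CCAAT, the GC box GGGCGG and the cAMP response element TGACGTCA. They occur in 14.2%, 37.5%, 33.1% and 1.83% of the 33465 promoter windows of the table. Lrrtm2 holds 1 TGACGTCA, and 612 windows of the table hold at least 1. LRRTM1, Lrrtm3, Lrrtm4 and Nlgn1 hold none of the 4 motifs, Nlgn3 holds 1 CCAAT and Nlgn2 holds 3 GGGCGG matches, of which a pair overlap. The windows also differ in base composition: G and C make up 67.3% of that of Nlgn2 and 61.7% of that of Nlgn3, but 43% of that of Lrrtm2 and 43.3% of that of Nlgn1, around a median of 51.7% over all windows. LRRTM1 has 15 CpG pairs in its window, against 6 for Lrrtm2 and 7 for Lrrtm4. A match is a run of letters and not a shown binding site.

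Several LRRTM genes lie inside genes of the alpha catenin family, which link cadherins to actin. In RefSeq (GRCr8) LRRTM1 lies within Ctnna2, Lrrtm2 within Ctnna1 and Lrrtm3 within Ctnna3, and no overlapping coding gene was found for the other 6. LRRTM1 and Lrrtm3 are on the + strand and their hosts on the - strand. The library kit keeps the strand, but whether counting used it is not given in the sources used here, so values of nested genes and hosts are uncertain to that extent. Ctnna2 had 1568.4 scaled counts in ER and 1494.0 in EE, against 1369.3 in SH. Its EEvSH ratio was 1.091 (1.013 to 1.176) and its ERvSH ratio 1.145 (1.064 to 1.233), where those of LRRTM1 were below 1. Ctnna1 had 2074.2 in ER and 2127.8 in EE, against 2199.8 in SH, with an EEvSH ratio of 0.967 (0.910 to 1.028), below 1 where Lrrtm2 was above it. The row matched to Ctnna3 by a RefSeq synonym had few reads, with 26.7 scaled counts in ER and 35.2 in EE, against 20.9 in SH, and intervals that held 1.

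Partners of neurexins were taken next: secreted ligands, postsynaptic receptors and presynaptic adaptors, of which 23 of 25 listed genes were measured. In EEvSH 2 were called higher and 1 lower, in ERvSH 2 higher and 1 lower, and in ERvEE 1 higher. These are 13%, 13% and 4.35% of the list, beside 5.43%, 4.12% and 4.13% of all genes tested. Among genes that averaged 500 or more 1.78%, 1.1% and 0.715% were called, and 15 of the 23 reached that level. The called genes, Nxph4, Cbln2, Lin7a and Lin7c, averaged 264.2, 420.1, 357.1 and 493.9 and did not reach it. The interval excluded 1 for 6 in EEvSH (5 higher and 1 lower), for 9 in ERvSH (7 higher and 2 lower) and for 3 in ERvEE (2 higher and 1 lower). These are 26.1%, 39.1% and 13% of the list, beside 25.8%, 22.3% and 17.1% of genes that averaged 500 or more. The median log2 ratio of the list was 0.04 in EEvSH, 0.04 in ERvSH and 0.002 in ERvEE, while that of all genes tested was 0.002, 0.002 and -0.003. Among the secreted ligands, Nxph4, a neurexophilin, had 289.3 scaled counts in ER and 283.3 in EE, against 220.1 in SH. It was called in EEvSH at 1.29 (1.07 to 1.54) and in ERvSH at 1.31 (1.098 to 1.575). Cbln2, a cerebellin that bridges neurexins to delta glutamate receptors, had 438.0 in ER and 452.8 in EE, against 369.5 in SH. It was called in EEvSH at 1.23 (1.065 to 1.41), and its ERvSH ratio was 1.19 (1.03 to 1.37). Nxph1, the founding neurexophilin, had an EEvSH ratio of 1.03 (0.954 to 1.101) and an ERvSH ratio of 1.04 (0.971 to 1.12). Dag1, dystroglycan, had 4117.6 in ER and 4020.8 in EE, against 3874.8 in SH, with an ERvSH ratio of 1.06 (1.02 to 1.11).

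Among the presynaptic adaptors, Lin7a and Lin7c, homologs of the worm protein LIN-7, went separate ways. The homolog Lin7b had 1527.4 scaled counts in ER and 1623.2 in EE, against 1561.5 in SH, and its intervals held 1. Lin7a had 337.5 scaled counts in ER and 320.5 in EE, against 413.3 in SH. It was called lower in EEvSH at 0.776 (0.667 to 0.901) and in ERvSH at 0.817 (0.705 to 0.946). Lin7c had 566.2 in ER and 464.2 in EE, against 451.1 in SH. It was called higher in ERvSH at 1.26 (1.11 to 1.42) and in ERvEE at 1.22 (1.08 to 1.39). Cask, the adaptor that binds the neurexin tail, was not analysed here.

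Partners of neuroligins and LRRTMs are mainly postsynaptic scaffolds, and 18 of 20 listed genes were measured. By the 1.2-fold rule 0 of the 18 were called in any comparison, beside 1.78%, 1.1% and 0.715% of genes that averaged 500 or more and 5.43%, 4.12% and 4.13% of all genes tested. A list of 18 would hold few called genes at those shares. The interval excluded 1 for 7 of them in EEvSH, all lower in EE, for 6 in ERvSH, 5 of them lower, and for 5 in ERvEE, 3 of them higher. The shares were 38.9% in EEvSH, 33.3% in ERvSH and 27.8% in ERvEE, beside the 25.8%, 22.3% and 17.1% of genes that averaged 500 or more. Dlg4, which encodes the excitatory scaffold PSD-95, had 23682.6 scaled counts in ER and 24166.3 in EE, against 24841.3 in SH. Its ratio was 0.973 in EEvSH (0.956 to 0.990) and 0.953 in ERvSH (0.936 to 0.971). Gphn, gephyrin, the scaffold of inhibitory synapses that binds Nlgn2, had 2262.9 in ER and 2176.4 in EE, against 2389.0 in SH. Its ratio was 0.911 in EEvSH (0.859 to 0.966) and 0.947 in ERvSH (0.894 to 1.004). Mdga1 and Mdga2 encode proteins that bind neuroligins and keep neurexins off them. Mdga1 had 580.6 in ER and 578.0 in EE, against 554.7 in SH, and its intervals held 1. Mdga2 had 513.9 in ER and 458.0 in EE, against 432.2 in SH, with an ERvSH ratio of 1.19 (1.04 to 1.36).

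Sparcl1, the astrocyte-secreted protein hevin that bridges neurexins and neuroligins, was named after its values were seen. It had 65750.7 scaled counts in ER and 58199 in EE, against 67380.6 in SH. The EE library was thus the low one, at 0.864 in EEvSH (0.854 to 0.873), with 0.976 in ERvSH (0.965 to 0.986) and 1.13 in ERvEE (1.12 to 1.14). The 1.2-fold limit was not reached.

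Of 64 genes of other synaptic adhesion families 57 were measured, and 1 was called in EEvSH, 1 in ERvSH and 2 in ERvEE. These are 1.75%, 1.75% and 3.51% of the list, beside 5.43%, 4.12% and 4.13% of all genes tested. Among genes that averaged 500 or more 1.78%, 1.1% and 0.715% were called, and 50 of the 57 measured genes reached that level. The interval excluded 1 for 20 in EEvSH (6 higher and 14 lower), for 13 in ERvSH (4 higher and 9 lower) and for 12 in ERvEE (6 in each direction). These are 35.1%, 22.8% and 21.1% of the list, beside 25.8%, 22.3% and 17.1% of genes that averaged 500 or more. Amigo2, a leucine-rich repeat adhesion gene, had 341.6 scaled counts in ER and 261.6 in EE, against 382.4 in SH. It was called lower in EEvSH at 0.684 (0.581 to 0.804) and higher in ERvEE at 1.31 (1.11 to 1.54). Cntnap5b, of the contactin-associated family that is related to neurexins, had 298.5 in ER and 270.9 in EE, against 233.0 in SH, and was called in ERvSH at 1.28 (1.08 to 1.53). Igsf9, an immunoglobulin superfamily gene, had 46.2 in ER against 70.3 in EE, with 49.8 in SH, and was called lower in ERvEE at 0.657 (0.440 to 0.971). Lrrc4, which binds netrin-G2, had 2828.1 in ER and 2780.2 in EE, against 2955.7 in SH, with an EEvSH ratio of 0.941 (0.893 to 0.991). The median log2 ratio over the 57 genes was -0.007 in EEvSH, -0.021 in ERvSH and 0.001 in ERvEE, beside -0.058, -0.039 and 0.006 for the 9 members.

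**Figure D4:**
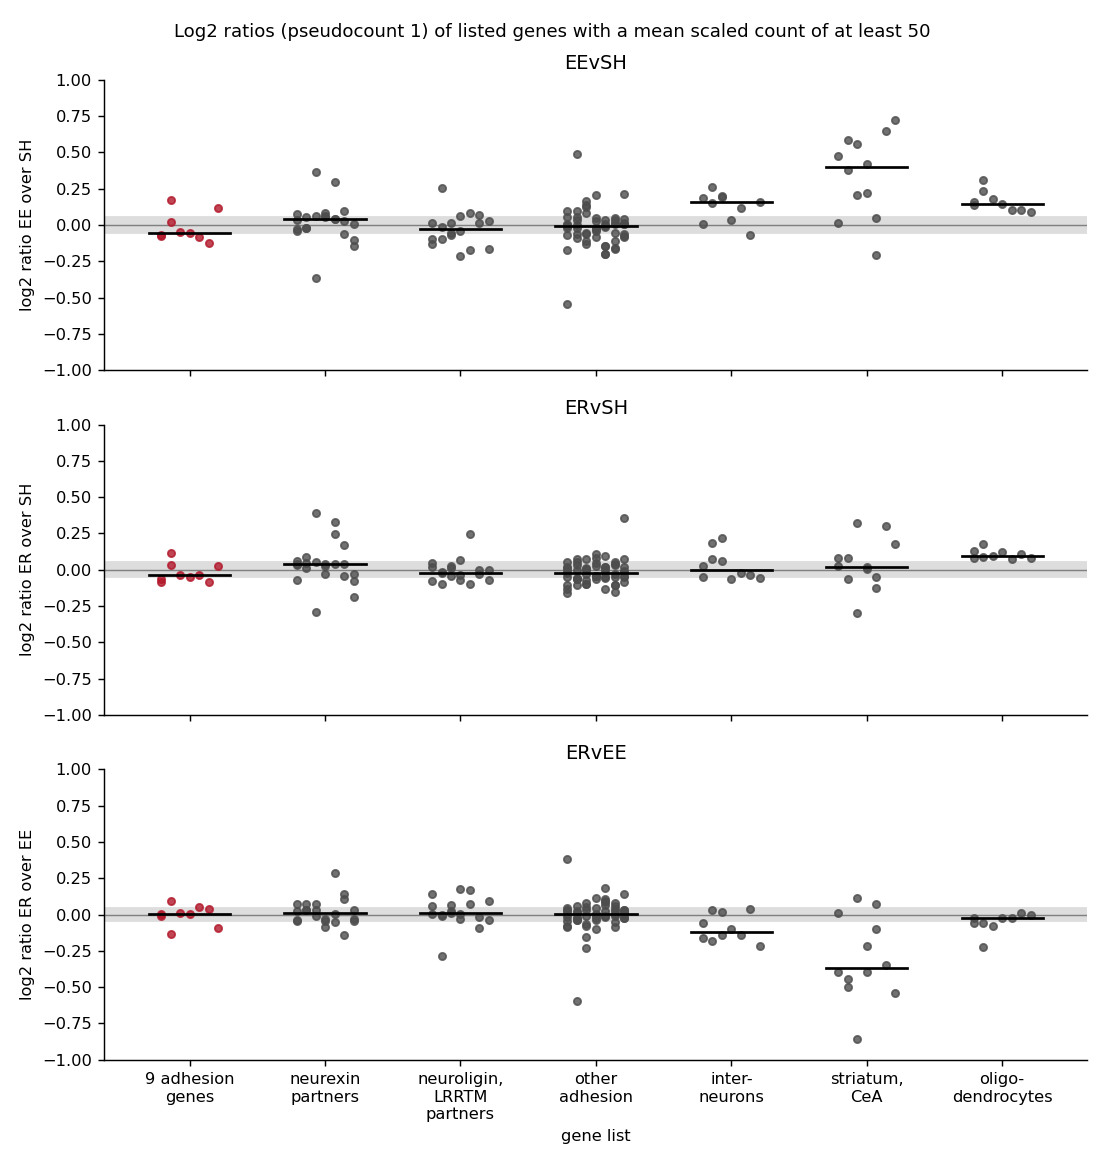
Log2 ratios (vertical axis, pseudocount of 1) of genes that averaged 50 or more scaled counts in EEvSH, ERvSH and ERvEE, for the 9 adhesion genes (red) and 6 other lists (grey). Each point is a gene, the bar is the list's median and the grey band is the range between the quartiles of genes that averaged 500 or more; the median of the markers of striatum and central amygdala was 0.399 in EEvSH and -0.371 in ERvEE.

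Markers of cell types and neighbouring regions also differed between the libraries. All lists had 0 measured genes at 0 in any library. The 12 measured markers of striatum and central amygdala, regions that border the BLA, summed to 13580.6 scaled counts in ER and 15857.9 in EE, against 13744.6 in SH. Of these 11 had a ratio above 1 in EEvSH, where 7 were called, all higher. In ERvEE 7 were called, all lower. Each count is 58.3% of the list, beside 5.43% and 4.13% of all genes tested. Penk, the enkephalin precursor, was called in both, at 1.34 (1.29 to 1.39) and 0.759 (0.731 to 0.788). The list was not uniform. Ppp1r1b was the 1 marker below 1 in EEvSH, at 0.868 (0.827 to 0.910). Its ERvEE ratio was 1.054 (1.003 to 1.108). For Drd1, Pde10a and Tac1 the intervals held 1 in both comparisons. The ERvEE ratios of Drd1 and Tac1 were above 1, at 1.007 (0.920 to 1.102) and 1.084 (0.888 to 1.323). Markers of interneurons summed to 36955.5 in ER and 40228.9 in EE, against 36266.6 in SH. In EEvSH 9 of 10 were above 1, beside 49.3% of genes that averaged 500 or more, with a median log2 ratio of 0.156. The interval excluded 1 for 7, all higher, beside 25.8% of those genes (12.8% higher). The intervals of Pvalb, Vip and Cck held 1, and Vip was below 1 at 0.951. In ERvEE the interval excluded 1 for 6, all lower, beside 17.1% (8.41% lower). By the 1.2-fold rule 0 were called in either comparison, beside 1.78% and 0.715%. Nrxn3 and Lrrtm2 were likewise highest in EE, so these marker values stand beside theirs, and their part in the result was not tested.

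Oligodendrocyte markers summed to 127597 in ER and 132329 in EE, against 117742 in SH. In both EEvSH and ERvSH 9 of 9 were above 1, beside 49.3% and 50.2% of genes that averaged 500 or more. The intervals of Nrxn2 and Nlgn2 lay below 1 in both of those comparisons, and those of Nlgn3 and LRRTM1 in EEvSH but not in ERvSH. Those of Nlgn1, Lrrtm3 and Lrrtm4 held 1 in both. Nrxn3 and Lrrtm2 went the other way in EEvSH, with intervals above 1, and their ERvSH intervals held 1. The part of the oligodendrocyte difference in these values was not tested either. Markers of neurons as a whole summed to 298020 in ER and 300271 in EE, against 294451 in SH, with 5 of 10 above 1 in EEvSH and a median log2 ratio of 0.007. Glutamatergic markers summed to 95657.9 in ER and 94977.8 in EE, against 96295.9 in SH, and 8 of 9 were measured. Most of that sum was Slc17a7, the vesicular glutamate transporter VGLUT1, with an EEvSH ratio of 1.0 (0.989 to 1.01). In EEvSH 5 of the 8 intervals excluded 1, 3 higher and 2 lower. Among genes that averaged 500 or more the share was 25.8% (12.8% higher and 13.1% lower). Slc17a6, which encodes VGLUT2, was called higher in EEvSH at 1.39 (1.23 to 1.58) and in ERvSH at 1.21 (1.06 to 1.37). Tbr1, a transcription factor of glutamatergic neurons, had ratios below 1, at 0.899 in EEvSH (0.845 to 0.956) and 0.902 in ERvSH (0.848 to 0.960). Astrocyte markers summed to 72333.3 in ER and 73822.2 in EE, against 73059.9 in SH. Microglial markers summed to 10316.5 in ER and 10415.5 in EE, against 10699.3 in SH. Markers of oligodendrocyte precursors summed to 8747 in ER and 9114.8 in EE, against 8877.9 in SH. Markers of endothelium and blood, of which 5 of 8 were measured, summed to 3843.7 in ER and 4042.5 in EE, against 3326.1 in SH. The called genes of this list were those of haemoglobin: Hbb was called higher in EEvSH at 1.605 (1.45 to 1.78) and in ERvSH at 1.48 (1.33 to 1.64), and Hba-a2 in EEvSH at 1.32 (1.21 to 1.44). The intervals of the endothelial genes Flt1, at 1.004 in EEvSH (0.928 to 1.086), and Tek, at 1.07 (0.937 to 1.22), held 1.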

How the data were processed

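Per the labels and the study's methods, polyadenylated RNA was selected from pooled BLA RNA of 10 rats per condition, a stranded library was made for each pool, and alignment used HISAT2 and scaling DESeq2. For versions, genome build and counting settings: not given in the sources used here. The deposited values are a signal, namely each gene's reads over a size factor. In each library 100% of the deposited values were whole multiples of the worth of 1 read (1.0258 in ER, 1.0339 in EE and 0.99584 in SH) within 0.001 of a read, so whole reads were recovered. Groups followed the labels.

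Ratios carry no pseudocount, and log2 ratios of lists carry a pseudocount of 1. Ratios of 2 genes have exact conditional intervals. Symbols were matched ignoring case. Tested genes were those coding for protein whose scaled count averaged above 1. The rule for named genes took all 9 members, the host genes, list members with a mean of at least 50 past the 1.2-fold rule, some partners whatever their values and the 3 genes most like the member of widest range. The text gives examples from the marker lists. Members and lists were chosen with earlier results of these data known. Alternatives were scaling by library totals, edgeR TMM and upper quartile, pseudocounts of 0.5 and 5, fold limits of 1.1 and 1.5, a 99% interval and other filters on level. The procedure was tested on simulated reads that held counting error only. That test cannot show how the rule fares with variation between pools of rats. Python 3.11.15, numpy 2.4.6, pandas 2.3.3, scipy 1.17.1, matplotlib 3.10.9, R 4.3.3 and edgeR 4.0.16 were used.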

Additional observations from a re-analysis of the deposited data

How the results depend on the processing

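The log2 ratios of the 9 members were recomputed under 135 combinations of gene, comparison and alternative, and all 135 stayed within their counting intervals. In 3 of them, all in ERvEE and near 0, the sign changed, for Nlgn2 and Lrrtm3. Scaling moved no comparison by more than 0.0065 on the log2 scale. With a fold limit of 1.1 the EEvSH count of called members was 1, Nrxn3, against 0 with 1.2. The count of members with an interval that excluded 1 was 1 in ERvSH with a 99% interval, against 2 with 95%, and 2 in ERvEE, against 1 with the deposited scaling, under scaling by library totals and by the upper quartile. The following alternatives were chosen after seeing the data. With a 99% interval, the count of other adhesion genes with an interval that excluded 1 was 12 in EEvSH, where the 95% interval gave 20, and 5 in ERvEE, where it gave 12. That of neuroligin and LRRTM partners in ERvEE was 3, where it gave 5, and 1 other adhesion gene was called in ERvEE, where it gave 2. With scaling by the upper quartile, 5 neurexin partners had such an interval in ERvEE, against 3 with the deposited scaling. Shares and levels per exonic length were not run, since no lengths were at hand. No paired analysis was possible because each condition had only 1 library, and leaving out a replicate was not possible for the same reason. Depth limits the interval of a member to a width between 0.0391 and 0.196 in ratio, and it does not cover variation between rats.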
